A study of Rattus norvegicus with 4 samples.

Results

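The insulin-like growth factor (IGF) genes examined were 2 ligand genes (Igf1 and Igf2), the receptor gene Igf2r and 6 binding protein genes (Igfbp1 to Igfbp6), taken as every non-control probe whose accession belonged to 1 of these 9 genes. They are 9 of 8927 named genes on the array and have 14 of 40758 probes. Of the 9 genes, 6 had 1 probe each, Igfbp3 and Igfbp4 had a pair each, and Igf1 had 4. Each of 4 groups of cells of the fisher 344 rat was hybridised to 1 one-colour array: neurons derived from the neural stem cells of the olfactory bulb (OB neurons), neurons derived from those of the hippocampus (HPC neurons), OB stem cells and HPC stem cells. The series title names the adult hippocampus for the hippocampal cells. Per the series' design text, each array held RNA mixed from 3 independent experiments, so the arrays give no spread between experiments, and no agent, age or time of differentiation is given in the sources used here. Both neuron arrays lay on 1 slide and both stem cell arrays on another, so slide and cell state cannot be told apart.

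IGF-1 and IGF-2 are secreted peptides related to insulin that act mainly through the tyrosine kinase receptor IGF1R, promoting growth, survival and differentiation of neural cells. The IGF2R protein, the cation-independent mannose 6-phosphate receptor, carries lysosomal enzymes and takes up IGF-2 for degradation. The secreted binding proteins hold most extracellular IGF, prolong its life, and block or assist its access to the receptor. In the brain, IGF-2 and several binding proteins are known products of the meninges, choroid plexus and vessels, and IGF-1 of neurons and glia.

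The RefSeq gene table of the rat assembly GRCr8 places Igfbp2 next to Igfbp5 on chromosome 9 and Igfbp1 next to Igfbp3 on chromosome 14, each pair on opposite strands. The 250 bases before the annotated start are shown for the neighbours Igfbp2 and Igfbp5, which had the largest state changes of the 9 genes in olfactory bulb cells, and for Igfbp1 and Igfbp4, which differed by less than 2-fold in both sources. The sequences are from RefSeq (GRCr8), 5′ to 3′ on the gene's strand. Capitals mark matches to the TATA box (TATAAA), the GC box (GGGCGG), the CCAAT box, the cyclic AMP response element (TGACGTCA) and an E-box (CACGTG), which were searched on both strands and could overlap.

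Igfbp2, chr9:81864561-81864810, plus strand: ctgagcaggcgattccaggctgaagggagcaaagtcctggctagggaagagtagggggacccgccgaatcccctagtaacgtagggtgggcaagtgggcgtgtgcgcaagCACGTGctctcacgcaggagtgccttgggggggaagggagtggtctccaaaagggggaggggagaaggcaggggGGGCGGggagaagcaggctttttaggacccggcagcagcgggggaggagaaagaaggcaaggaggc
Igfbp5, chr9:81914188-81914437, minus strand: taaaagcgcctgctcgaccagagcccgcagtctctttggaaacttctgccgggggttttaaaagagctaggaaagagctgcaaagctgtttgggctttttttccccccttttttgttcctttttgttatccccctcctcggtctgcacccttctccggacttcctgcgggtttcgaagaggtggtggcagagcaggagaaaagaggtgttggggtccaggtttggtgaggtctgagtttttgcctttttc
Igfbp1, chr14:86261027-86261276, plus strand: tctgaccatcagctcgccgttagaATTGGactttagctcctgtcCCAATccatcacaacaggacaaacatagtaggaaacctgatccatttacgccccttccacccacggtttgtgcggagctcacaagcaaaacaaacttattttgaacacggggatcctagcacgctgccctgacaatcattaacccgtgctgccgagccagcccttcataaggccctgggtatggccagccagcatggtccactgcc
Igfbp4, chr10:84491221-84491470, plus strand: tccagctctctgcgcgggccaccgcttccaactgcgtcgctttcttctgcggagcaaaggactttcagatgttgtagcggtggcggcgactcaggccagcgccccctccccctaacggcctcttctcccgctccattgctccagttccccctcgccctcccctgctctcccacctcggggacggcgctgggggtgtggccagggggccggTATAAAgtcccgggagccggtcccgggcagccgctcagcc

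Igfbp2 held 1 GC box and 1 E-box, Igfbp1 held 2 CCAAT boxes, Igfbp4 held 1 TATA box, and Igfbp5 held none of these motifs in this window. Among 33469 promoters of the same length, 30.5% held the GC box, 5.59% the E-box, 34.0% the CCAAT box, 12.9% the TATA box and 1.59% the cyclic AMP response element. The windows of Igf1, Igfbp3 and Igfbp6 held none of them, and that of Igf2r held 2 GC boxes and 2 E-boxes. A match is a run of letters and not a shown binding site.

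The array reads fluorescence per probe, given here as processed signal in arbitrary units, or as a level, which is the log2 signal minus the log2 of the array's 75th percentile. A level of 0 is thus the 75th percentile of that array, and a difference of 1 log2 unit is 2-fold, the size from which a difference is called. Levels are compared between arrays for 1 probe and not between probes. The share of probes well above background was 74.0% in OB neurons, 66.6% in HPC neurons, 63.8% in OB stem cells and 60.2% in HPC stem cells. Precision is limited by having 1 array per group. The 75th percentile was 725.1 and 805.4 units on the OB and HPC neuron arrays, and 816.1 and 486.6 units on the OB and HPC stem cell arrays. The HPC stem cell array stood apart in brightness, so differences against it lean on this scaling. Errors after ± are the scanner software's error estimate for the spots, combined over the arrays compared. They cover neither cultures nor slides.

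The labels were set against markers before the results. Of 9 measured neuron markers, 3 were higher and 6 lower in OB neurons than in OB stem cells, and 2 were higher and 4 lower in HPC neurons than in HPC stem cells. Of all genes compared, 26.9% were higher and 20.0% lower in the olfactory bulb, and 21.9% higher and 26.8% lower in the hippocampus. Over both sources the shares were 18.5% higher and 16.8% lower, which also stand beside the marker counts that follow. In both sources 2 of the 9 neuron markers were higher and 4 lower. Of the 4, Tubb3, a tubulin of young neurons, differed by -3.08 and -2.73, and Mapt, which encodes tau, by -6.44 and -3.62, in the olfactory bulb and the hippocampus. The 2 higher in both were Stmn2, by at least 5.01 and 5.83, and Snap25, by 3.08 and 3.97. The summed signal of the 9 neuron markers was 2.29 and 6.66 times the 75th percentile in OB and HPC neurons. In OB and HPC stem cells it was 37.6 and 47.5 times it. The name neurons is kept below as given by the labels, and most of these markers did not bear it out. All 7 stromal, pericyte and smooth muscle markers were higher in neurons of both sources. Their summed signal was 517.0 and 381.0 times the 75th percentile in OB and HPC neurons, against 0.129 and 0.111 times it in OB and HPC stem cells, where Col3a1, Dcn, Lum, Pdgfrb, Tagln and Rgs5 were not well above background. Of 8 astrocyte markers 7 were higher in neurons of both sources, with sums of 109.2 and 111.7 against 6.98 and 6.90. Of 8 microglia markers, 4 were higher in both, with sums of 7.10 and 6.78 against 0.830 and 0.803, and Itgam and Cx3cr1 were not well above background on any array. Of 4 measured choroid plexus markers 3 were higher in neurons of both sources, with sums of 9.09 and 62.6 against 0.149 and 0.246, and Kl was not well above background on any array. Each such sum leans on its brightest probes. In OB neurons Aqp1 had 6503 units, against 44.4 for Folr1 and 34.9 for Ttr. Of 3 measured meninges markers 2 were higher in both, with sums of 13.5 and 1.93 against 0.0226 and 0.0375. Of 5 measured neural stem cell markers 1 was higher and 2 lower in neurons of both sources, with sums of 31.0 and 26.5 against 60.7 and 72.7. Of 5 oligodendrocyte markers, 0 were higher and 1 lower in both, with sums of 13.8 and 12.98 against 19.8 and 29.7. Of 3 measured endothelial markers, 2 were higher in both, with sums of 6.51 and 4.27 against 0.252 and 0.317, and Pecam1 was not well above background on any array. The part of these markers in the results below was not tested, and in bulk RNA more cells of a type and more RNA per cell cannot be told apart.

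The first comparison asked how IGF genes differed between neurons and the stem cells they came from. The ligands Igf1 and Igf2, the receptor gene Igf2r and the binding protein genes Igfbp2, Igfbp3, Igfbp5 and Igfbp6 were higher in neurons of both sources, while Igfbp1 and Igfbp4 differed by less than 2-fold in both. With median scaling these 2 genes were lower in HPC neurons, at -1.33 and -1.03. In olfactory bulb cells 7 of the 9 genes were higher by 2-fold or more and 0 lower, where 46.8% of all genes compared passed this line, 26.9% higher and 20.0% lower. In hippocampal cells 7 were again higher and 0 lower, where 48.7% of all genes passed it, 21.9% higher and 26.8% lower. The median difference of the 9 genes was 3.46 in olfactory bulb and 1.96 in hippocampal cells, beside 0.08 and -0.32 for all genes compared. The 7 higher genes were the same in both sources, where 18.5% of all genes were higher and 16.8% lower in both. The 2 comparisons share both slides.

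**Figure D1:**
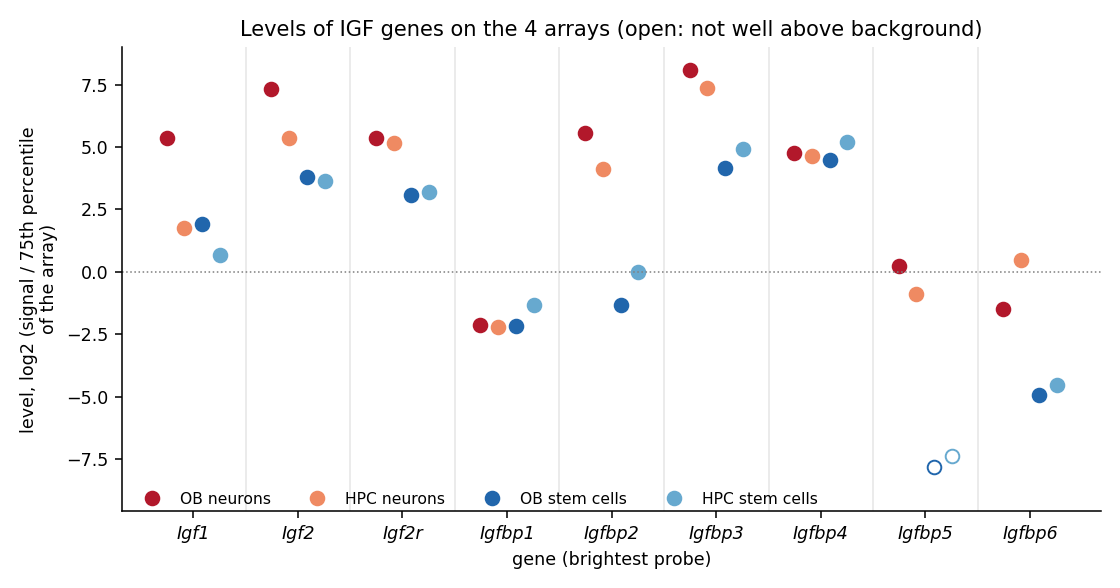
Level of each IGF gene (log2 of signal over the array's 75th percentile, brightest probe) on the arrays of OB neurons, HPC neurons, OB stem cells and HPC stem cells, 1 point per array and open where the probe was not well above background. Both neuron arrays lie above both stem cell arrays for Igf2, Igf2r, Igfbp2, Igfbp3, Igfbp5 and Igfbp6; points of different genes are not comparable in height.

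Among the ligands, Igf2 had levels of 7.31 in OB neurons and 5.36 in HPC neurons, against 3.82 in OB stem cells and 3.64 in HPC stem cells. Both neuron arrays lay above both stem cell arrays, with OB neurons highest. The difference was 3.49 ± 0.20 log2 units in olfactory bulb cells (11.3-fold) and 1.73 ± 0.20 in hippocampal cells (3.31-fold). The stem cell arrays differed by 0.18 ± 0.20, within the spot error.

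Igf1, read by its brightest probe, had levels of 5.36 in OB neurons and 1.76 in HPC neurons, against 1.93 in OB stem cells and 0.69 in HPC stem cells. OB neurons stood far above the other arrays, and the states overlapped, since HPC neurons lay slightly below OB stem cells. The difference was 3.43 ± 0.20 in olfactory bulb cells (10.8-fold) and 1.07 ± 0.20 in hippocampal cells (2.10-fold). The hippocampal value was close to the 2-fold line and fell below it in 2 alternatives, at 0.61 with median scaling and 0.07 with the mean over the 4 Igf1 probes.

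The 4 Igf1 probes split into a bright pair and a dim pair. Probe A_44_P366723 had signals of 29751 in OB neurons and 2725 in HPC neurons, against 3099 in OB stem cells and 783.1 in HPC stem cells. Probe A_44_P126021, designed on another Igf1 transcript (NM_001082479, the other 3 being on NM_178866), had 2408 and 272.5 in OB and HPC neurons, against 313.4 and 111.7 in OB and HPC stem cells. These 2 probes kept the same order of the 4 arrays, and their state differences were 3.43 and 3.11 in olfactory bulb cells but 1.07 and 0.56 in hippocampal cells, the last being under 2-fold.

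The dim pair stayed near the detection floor. Probe A_44_P421499 had signals of 42.9 and 24.5 in OB and HPC neurons, against 23.3 and 25.1 in OB and HPC stem cells. Probe A_44_P421502, printed 10 times, had mean signals of 29.6 and 25.4 in OB and HPC neurons, against 23.7 and 23.3 in OB and HPC stem cells. These are 1.57 to 5.03 times the lowest signal well above background on their arrays, and the SD among spots of the printed-10-times probe was 0.24 to 0.36 log2 units. The dim pair differed by 1.05 ± 0.33 and 0.49 ± 0.31 in olfactory bulb cells, and by -0.76 ± 0.39 and -0.60 ± 0.34 in hippocampal cells. In unscaled signal the HPC neuron and HPC stem cell arrays were nearly even on both probes. The probe sequences were not used here, so where in the transcript each probe lies is not given.

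**Figure D2:**
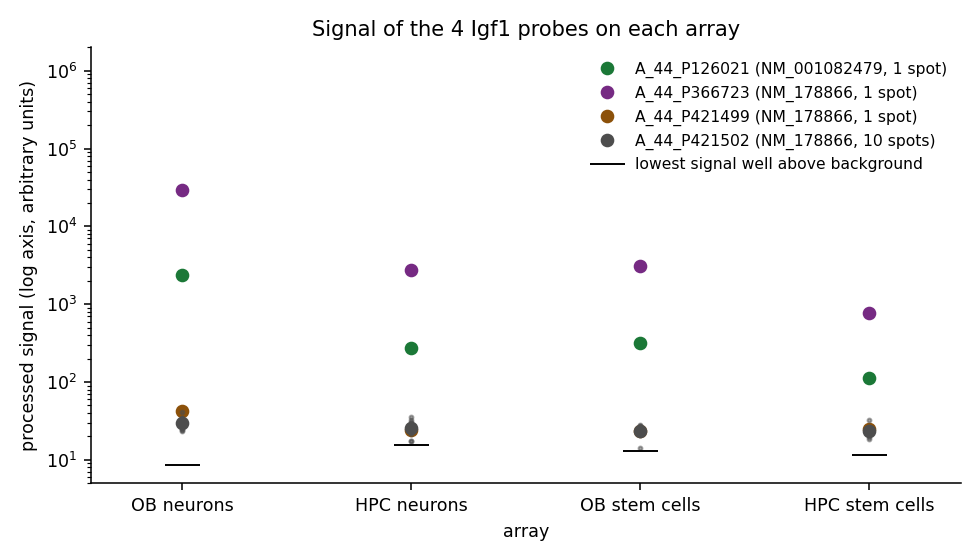
Processed signal (log axis) of the 4 Igf1 probes on the 4 arrays; small points are single spots of the probe printed 10 times, and dashes mark the lowest signal well above background on each array. The bright pair is highest in OB neurons, at 29751 and 2408 units, while the dim pair lies between 23.3 and 42.9 units on every array.

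Igf2r had levels of 5.36 in OB neurons and 5.15 in HPC neurons, against 3.08 in OB stem cells and 3.20 in HPC stem cells. Both neuron arrays were well above both stem cell arrays, with little between sources. The difference was 2.28 ± 0.20 in olfactory bulb cells (4.86-fold) and 1.96 ± 0.20 in hippocampal cells (3.88-fold), and these 2 changes differed by 0.33 ± 0.29.

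Igfbp2, a binding protein abundant in developing brain, had levels of 5.56 in OB neurons and 4.12 in HPC neurons, against -1.33 in OB stem cells and 0.01 in HPC stem cells. In signal this was 34311 and 13985 units in OB and HPC neurons, against 325.7 and 488.8 units in OB and HPC stem cells. Both neuron signals were far above both stem cell signals. The difference was 6.89 ± 0.20 in olfactory bulb cells (119-fold) and 4.11 ± 0.20 in hippocampal cells (17.3-fold).

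Igfbp5, whose product binds matrix as well as IGF, had signals of 854.5 and 440.0 units in OB and HPC neurons. On the stem cell arrays it had 3.60 units (OB) and 2.89 units (HPC) and was not well above background. It was therefore at least 73.7-fold higher in OB neurons (log2 6.20) and at least 23.3-fold higher in HPC neurons (log2 4.54), with the lowest signal well above background on the stem cell array taken as its bound. These bounds hold for the background subtraction of the deposited signals: with normexp and an offset of 50 units, the differences were 3.77 and 2.04.

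Igfbp3, the main carrier of IGF in serum, had levels of 8.07 in OB neurons and 7.37 in HPC neurons, against 4.17 in OB stem cells and 4.92 in HPC stem cells. The difference was 3.90 ± 0.20 in olfactory bulb cells (14.9-fold) and 2.45 ± 0.20 in hippocampal cells (5.46-fold). Its other probe, printed 10 times, gave 4.48 and 2.71, with an SD among spots of 0.05 to 0.08 log2 units on the 4 arrays. Both probes therefore had the same direction in both sources.

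Igfbp6, whose product prefers IGF-2 over IGF-1, was the binding protein gene called lower in OB than in HPC neurons. Its levels were -1.48 in OB neurons and 0.49 in HPC neurons, against -4.94 in OB stem cells and -4.52 in HPC stem cells. The stem cell signals of 26.5 and 21.3 units were only 2.03 and 1.86 times the lowest signal well above background. The difference was 3.46 ± 0.25 in olfactory bulb cells (11.03-fold) and 5.01 ± 0.26 in hippocampal cells (32.1-fold). With normexp and its offset the differences were 2.05 and 3.26.

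Igfbp4 and Igfbp1 had nearly even signals. Igfbp4, which holds IGF away from its receptor until the protease PAPP-A cleaves it, had 19625 and 20080 units in OB and HPC neurons, against 18121 and 18066 units in OB and HPC stem cells. Igfbp1, best known as a liver product lowered by insulin, had 164.8 and 176.0 units in OB and HPC neurons, against 181.1 and 194.3 units in OB and HPC stem cells. After scaling, Igfbp4 differed by 0.29 ± 0.20 in olfactory bulb cells and -0.57 ± 0.20 in hippocampal cells, and Igfbp1 by 0.04 ± 0.21 and -0.87 ± 0.21. The signs of these small values depend on scaling: scaled by spike-ins, control RNAs of known amount, the olfactory bulb values were -0.75 for Igfbp4 and -0.998 for Igfbp1. The second Igfbp4 probe gave 0.26 and -0.62.

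**Figure D3:**
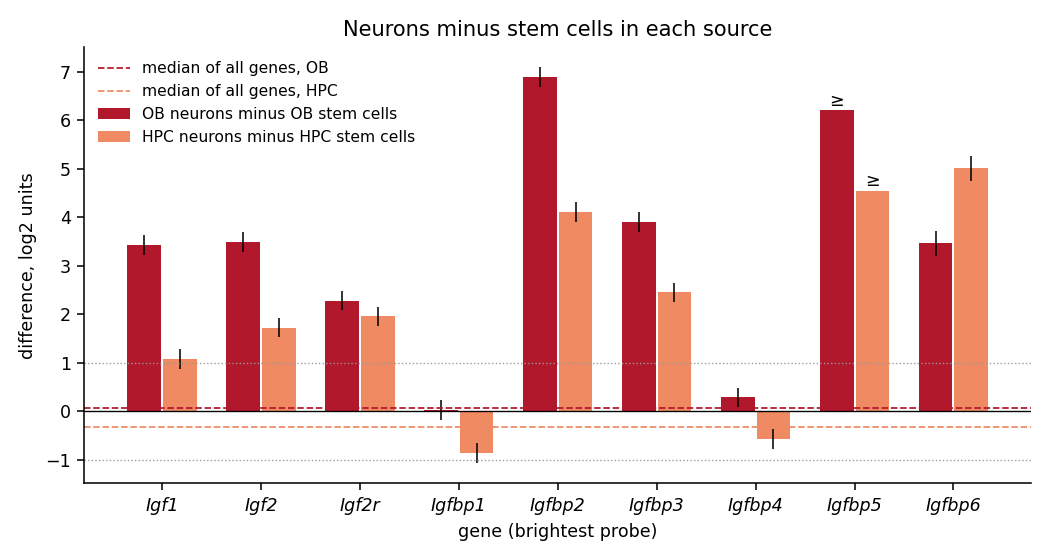
Difference in level (log2 units) between neurons and stem cells for each IGF gene, OB left and HPC right, with the spot error; "≥" marks a lower bound, dashed lines the medians of all genes (0.08 in OB and -0.32 in HPC cells) and dotted lines a 2-fold difference. All genes but Igfbp1 and Igfbp4 pass 1 log2 unit in both sources.

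A ratio between genes on the same arrays does not depend on multiplying whole arrays by a factor, as 75th percentile, median and spike-in scaling do. Relative to Igfbp4, the difference of Igfbp2 was larger by 6.60 in olfactory bulb cells and 4.69 in hippocampal cells, and that of Igf2r by 1.996 and 2.53. The smallest such value among the 7 higher genes was 1.65, for the brightest Igf1 probe in hippocampal cells. Igfbp4, nearly even in signal in these same data, itself differed by 0.29 in olfactory bulb cells and -0.57 in hippocampal cells. Dividing by it therefore lowered every olfactory bulb value and raised every hippocampal value, that of Igf1 from 1.07. The 1.65 is thus a difference against Igfbp4 only, and not separate evidence that Igf1 passed 2-fold. Igfbp1 differed from Igfbp4 in this way by -0.25 and -0.29.

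An additive limma fit over all 7111 genes well above background on at least 1 array asked which genes differed between states by a like amount in both sources, with the departure from additivity as its only error. That departure has 1 residual degree of freedom per gene. Limma pooled it with a spread shared over genes, which had 5.49 degrees of freedom. Of the 8 genes well above background on all 4 arrays, 6 passed an adjusted p of 0.05 (Benjamini-Hochberg over all genes fitted), where 31.6% of all genes did and 19.4% were higher. These shares are over all 7111 genes, also those dim on some arrays. The fit also called Igfbp5, but its stem cell signals were not well above background and no p is given for it. Igfbp6 had an adjusted p of 0.00152 in the limma fit, Igfbp2 0.00166, Igfbp3 0.00458, Igf2r 0.0113, Igf2 0.0130 and Igf1 0.0363. The fit gave Igf1 a mean difference of 2.25 (95% interval 0.74 to 3.76) and Igfbp2 one of 5.50 (3.84 to 7.16). Igfbp1 (adjusted p 0.523) and Igfbp4 (0.831) did not pass in the limma fit, with intervals of -1.52 to 0.69 and -1.24 to 0.95, which do not exclude differences of 2-fold. Both neuron arrays lay above both stem cell arrays for 6 of the 9 genes, where 33.4% of all genes had this order. Igfbp5 is 1 of the 6 and was well above background on the neuron arrays only. Igf1 lost the call under median, quantile and spike-in scaling and with the mean over its probes (adjusted p 0.0820 to 0.220 in limma), Igf2r lost it under spike-in scaling (0.112), and the slides remain confounded with the state.

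The next comparison set olfactory bulb against hippocampal cells of 1 state, so that both arrays lay on the same slide. In neurons, Igf1, Igf2, Igfbp2 and Igfbp5 were higher in the olfactory bulb and Igfbp6 was lower. These are 5 of 9 genes, where 15.7% of all genes differed by 2-fold or more (7.66% higher and 8.0% lower). Igf1 was higher by 3.60 ± 0.20 (12.1-fold), with 3.30, 0.96 and 0.37 on its other 3 probes. Igf2 was higher by 1.95 ± 0.20 (3.86-fold), Igfbp2 by 1.45 ± 0.20 (2.73-fold) and Igfbp5 by 1.11 ± 0.20 (2.16-fold), while Igfbp6 was at -1.97 ± 0.20 (3.92-fold lower). Igfbp3 differed by 0.70, Igf2r by 0.21, Igfbp4 by 0.12 and Igfbp1 by 0.06.

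Under spike-in scaling, the neuron values of Igfbp2 (0.84) and Igfbp5 (0.50) came below 2-fold, while those of Igf1 (2.99), Igf2 (1.34) and Igfbp6 (-2.58) did not. In a ratio to Igfbp4 on the same arrays, which no single factor per array moves, Igf1 differed by 3.48, Igf2 by 1.83, Igfbp2 by 1.33, Igfbp5 by 0.99 and Igfbp6 by -2.09.

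**Figure D4:**
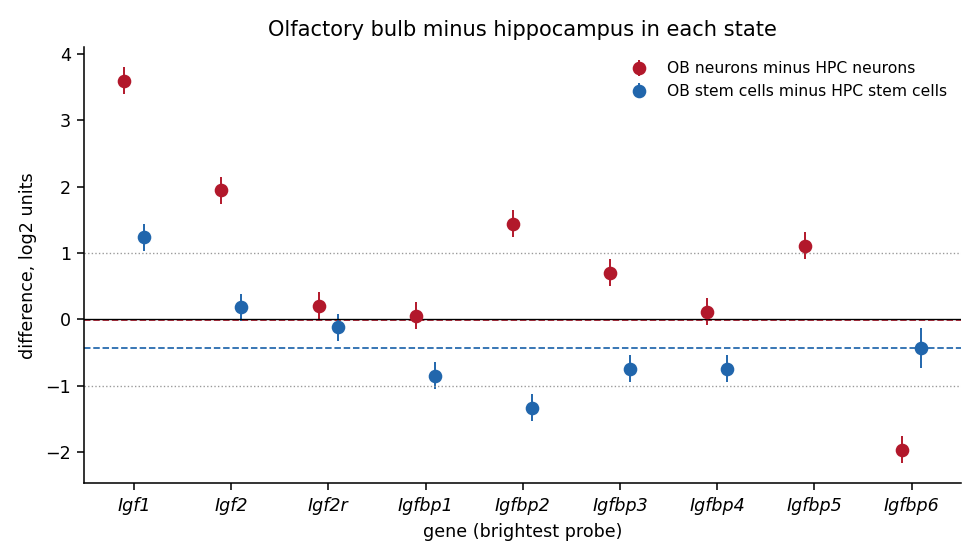
Difference in level (log2 units) between olfactory bulb and hippocampal cells for each IGF gene, in neurons and in stem cells, with the spot error; dashed lines are the medians of all genes (-0.01 and -0.43) and dotted lines a 2-fold difference. Igf1 lies above 1 in both states, at 3.60 and 1.24, and Igfbp2 lies at 1.45 in neurons and -1.33 in stem cells; Igfbp5 has no stem cell value.

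In stem cells 2 of 8 genes were called, where 11.1% of all genes were (4.17% higher and 6.97% lower). Igf1 was higher in the olfactory bulb by 1.24 ± 0.20 on its brightest probe (2.36-fold), but its other probes gave 0.74, -0.72 and -0.85. Igfbp2 was at -1.33 ± 0.20 (2.52-fold lower). The median of all genes was -0.43 here, beside -0.85 for Igfbp1, -0.75 for Igfbp3, -0.74 for Igfbp4, -0.43 for Igfbp6, -0.12 for Igf2r and 0.18 for Igf2. Igfbp5 was not well above background on either array. Spike-in scaling moved the median of all genes to 0.43 and Igfbp2 to -0.47, no longer 2-fold, with Igf2 at 1.04, while Igf2r, Igfbp1, Igfbp3, Igfbp4 and Igfbp6 turned positive, between 0.01 and 0.74.

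The limma fit called 0 genes for a like source difference in both states (smallest adjusted p 0.448; 399 of 7111 genes had an unadjusted p under 0.05). Of the 9 genes 1 had an unadjusted p under 0.05, Igf1, at a difference of 2.42 (95% interval 0.91 to 3.93, adjusted p 0.798 in limma). Igf1 was higher in the olfactory bulb on both slides by its brightest probe. It passed an adjusted p of 0.05 in limma only with normexp and with the genes well above background on all 4 arrays. In both alternatives the intervals of all members fitted had the same width. The spread was thus shared over genes, and the departure of Igf1 itself from additivity carried almost no weight.

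Markers of other cell types also differed between the neuron arrays. Olfactory ensheathing markers summed to 115.0 times the 75th percentile in OB neurons and 49.8 times in HPC neurons. The sums were 89.4 in OB stem cells and 159.1 in HPC stem cells, the latter being the highest. In stem cells they rest mainly on Sox10, nearly even in unscaled signal at 72308 units (OB) and 72509 units (HPC). In OB neurons the brightest gene of the list was Npy, at 52558 units. Between the neuron arrays, 4 of 5 measured genes were higher by 2-fold or more in OB neurons and 0 lower. Among the 4 was the neurotrophin receptor gene Ngfr (4.95), while Sox10 differed by -0.07. Meninges markers had 3 of 3 higher in OB neurons, among them Aldh1a2, which makes retinoic acid (3.16). For Slc22a6, not well above background in HPC neurons, this is a bound (at least 2.63). Choroid plexus markers had 3 of 3 lower, and the transthyretin gene Ttr was at -8.78. Of 9 neuron markers 0 were higher and 4 lower in OB neurons, with Mapt at -3.24 and Elavl3 at -2.68. Of 8 astrocyte markers 3 were higher and 1 lower, with the water channel gene Aqp4 at 4.35. Their part in the differences of Igf1, Igf2 and the binding proteins was not tested.

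The state changes of the 2 sources differed by 2 log2 units or more for 2 of the 8 genes well above background on all 4 arrays, where 4.13% of all such genes did and 2.55% changed more in the olfactory bulb. Igfbp2 changed more in olfactory bulb cells by 2.78 ± 0.29 and Igf1 by 2.36 ± 0.29. The other Igf1 probes gave 2.55, 1.81 and 1.09. Igf2 (1.77), Igfbp3 (1.45), Igfbp1 (0.90), Igfbp4 (0.86) and Igf2r (0.33) were also above 0, and Igfbp6 was at -1.54. With 1 array per group no interaction could be tested, and under spike-in scaling Igf1 came to 0.89 and Igfbp2 to 1.31, both under the 4-fold line, and Igfbp6 to -3.01, past it. Igf2r (-1.14), Igfbp4 (-0.61), Igfbp1 (-0.57) and Igfbp3 (-0.02) also changed sign under it.

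Of 23 other genes of the IGF axis, 12 had a named probe. In OB neurons against OB stem cells 6 were higher and 2 lower, and in HPC neurons against HPC stem cells 6 were higher and 3 lower; 6 were higher and 2 lower in both. As given above, 26.9% and 21.9% of all genes were higher and 20.0% and 26.8% lower in the olfactory bulb and the hippocampus, and 18.5% higher and 16.8% lower in both. The list medians were 0.97 and 1.09. Igf1r, the receptor for both ligands, had levels of 0.35 in OB neurons and 1.16 in HPC neurons, against 0.28 in OB stem cells and 0.30 in HPC stem cells. It differed by 0.07 and 0.86, and Insr, the insulin receptor gene, by 0.53 and -0.28, both under 2-fold. Insr was dim, at 21.3 to 39.5 units. Irs1, an adaptor of these receptors, was lower by 1.43 in OB neurons and by 1.14 in HPC neurons. Irs1 was dim too, at 29.2 and 34.7 units in OB and HPC neurons, against 88.3 and 46.1 in OB and HPC stem cells. Its call in hippocampal cells thus leans on the scaling.

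Genes whose products act on IGF carriers moved in different directions. Htra1, a secreted protease that can cleave IGF binding proteins, was higher by 8.21 in OB neurons and by 8.18 in HPC neurons. Its stem cell signals were dim, at 37.5 units (OB) and 28.6 units (HPC). The stanniocalcins, inhibitors of PAPP-A, went opposite ways. Stc1 was higher by at least 4.22 and 5.77, while Stc2 differed by -2.75 and -1.57. Igfals, the acid-labile subunit of the serum complex, differed by 0.22 and -1.06. It was near the detection floor on all 4 arrays, at 21.5 to 27.1 units, so its call as lower in hippocampal cells leans on the scaling. Ghr, the growth hormone receptor gene, was higher by 4.07 and 1.72, and Igf2bp1, an RNA-binding protein of Igf2 transcripts, by at least 3.37 and 2.49. M6pr, the smaller mannose 6-phosphate receptor, differed by -0.51 and -0.83, below 2-fold while Igf2r was higher. The insulin gene Ins1 was higher by 1.42 and 1.33 and its near-identical copy Ins2 by 2.996 and 1.69, and whether their probes tell them apart was not tested. The stem cell signals of Ins2 lay near the detection floor, at 23.3 units (OB) and 24.3 units (HPC).

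**Figure D5:**
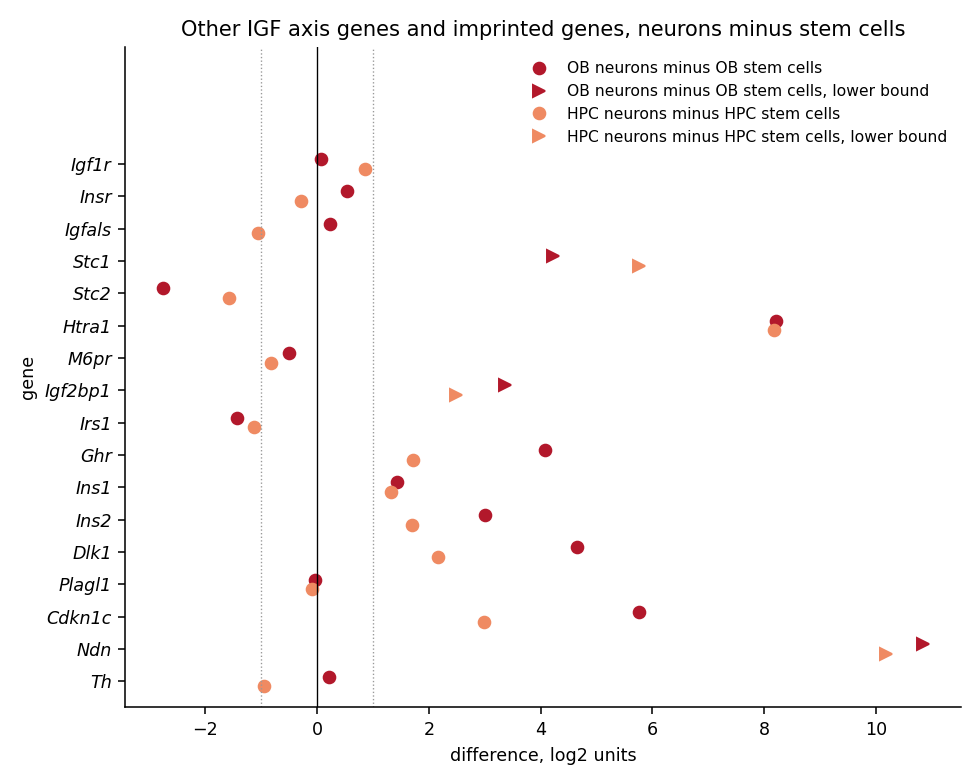
Difference in level (log2 units) between neurons and stem cells for 12 other IGF axis genes and further imprinted genes or neighbours of Igf2, in OB and HPC cells; triangles are lower bounds and dotted lines a 2-fold difference. Htra1 lies at 8.21 and 8.18, Stc1 and Stc2 lie on opposite sides of 0, and Igf1r, Insr and M6pr lie within 1 log2 unit of 0.

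Igf2 is imprinted, as are several growth regulators expressed with it in embryonic and stromal tissue. Of 11 listed imprinted genes and neighbours of Igf2, 6 had a named probe, and 4 of these were higher and 0 lower in neurons of both sources, beside the 18.5% and 16.8% of all genes. The 4 include Ins2, which also counts among the IGF axis genes. Cdkn1c, a cell cycle inhibitor, was higher by 5.76 and 2.98, and Dlk1, a membrane protein of progenitors, by 4.65 and 2.17. Ndn, which encodes necdin, was higher by at least 10.85 and 10.19. Plagl1 differed by -0.03 and -0.09. Th, listed as a neighbour of Igf2 though not the gene next to it in GRCr8, differed by 0.22 and -0.96. Th lay near the detection floor, at 24.3 to 28.4 units. Cdkn1c had levels of 7.32 in OB neurons and 4.52 in HPC neurons, against 1.56 in OB stem cells and 1.54 in HPC stem cells, the same order of arrays as Igf2.

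Patterns were compared with 5494 other genes that passed background on every array. The nearest by Euclidean distance of levels centred over the 4 arrays were Reln, Syk and Mgll for Igf1 (distances 0.72 to 1.24), Kifc2, Enpp2 and Fbxo2 for Igf2 (0.19 to 0.37) and Pon2, Ngly1 and Dynlt3 for Igf2r (0.06 to 0.14). They were Gstm2, Aox1 and Mdk for Igfbp2 (0.51 to 0.84), Fam43a, Stbd1 and Fah for Igfbp3 (0.11 to 0.21), and Nrros, Phf11b and Des for Igfbp6 (0.47 to 0.53). For the nearly even genes they were Kdelr2, Mrpl41 and Coro1b for Igfbp1 (0.05 to 0.07) and Cnksr3, G4 and Serpina4 for Igfbp4 (0.06 to 0.07). A distance over 4 arrays describes these arrays only.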

How the data were processed

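The deposited intensity values come from Agilent Feature Extraction 10.5.1.1, per the file headers, with background subtraction and detrending inside each array. No step between arrays is recorded, and the headers name rn4 for the probe design. The deposited value table held the same intensities. Here, spots with outlier flags were left out (254 of 41012 probes lost), spots of a probe were averaged as log2, and each array's 75th percentile over probes was subtracted. Accessions were matched without version to RefSeq genes of GRCr8, used for names, neighbours and promoter sequences: 10783 of 40758 probes kept had 1 symbol, 0 several, and 73.5% none. The brightest probe stood for a gene. A probe not well above background on 1 side gives a bound. No spot was saturated (0).

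With 1 array per group, single differences have no test. Limma 3.58.1 (R 4.3.3) fitted source and state over 4 arrays, on measured levels even where dim, with 1 residual degree of freedom. Simulated with that model's own spread over 7111 genes, 100 of them changed by each amount, the state term called 96% of differences of 4 log2 units, 24% of 2 and 0.174% of none. The real fit called 31.6% of genes, a far larger share, and slide effects were not simulated. These rates therefore need not hold for the real fit. The genes named were all members, 2 lists of IGF axis and imprinted genes, cell type markers and the 3 nearest patterns per member. Members and lists were chosen with earlier results of these data known. Alternatives were other background correction (normexp on median spot signals), scaling, filters and probe summaries.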

Additional observations from a re-analysis of the deposited data

Results flagged for a closer look

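With 1 array per group, effects of opposite sign in the 2 sources or in the 2 states are listed as they stand, and none of these differences was tested. The state change had opposite signs in olfactory bulb and hippocampal cells for the dim Igf1 probes A_44_P421499 and A_44_P421502, where the olfactory bulb change exceeded the hippocampal one by 1.81 and 1.09 log2 units, for Igfbp1 (0.90) and for both Igfbp4 probes (0.86 and 0.88). The same probes had opposite signs when the olfactory bulb was set against the hippocampus in neurons and in stem cells. Opposite signs between states also held for Igfbp2 (2.78), both Igfbp3 probes (1.45 and 1.77) and Igf2r (0.33).

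Of these, Igfbp2 passed 2-fold on each side, at 1.45 in neurons and -1.33 in stem cells, but on neither side under spike-in scaling, at 0.84 and -0.47. The others had at least 1 of their 2 differences under 2-fold, and spike-in scaling turned the difference of the state changes negative for Igf2r, Igfbp1, Igfbp3 and Igfbp4.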

How the results depend on the processing

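No paired analysis was possible because each group has 1 array, so no replicate numbers pair arrays within a source; the limma fit does carry source as a term. None of 312 alternative values for single genes turned the direction of a 2-fold difference (0), and 231 moved by less than the spot error. Many of the 231 could not have moved, so the count is a weak check. The deposited value table held the same intensities, the filters leave measured values as they are, and 6 genes have 1 probe to average. Smaller differences of Igf2r, Igfbp1, Igfbp3, Igfbp4 and Igfbp6 did change sign under other scalings or summaries. The 7 higher genes in olfactory bulb cells stayed 7 under every alternative that kept all 9 genes. In hippocampal cells there were 6 higher and 2 lower with median scaling (Igf1 at 0.61), 7 higher and 1 lower with quantile normalization, and 6 higher with the mean over a gene's probes, where Igf1 came to 0.07. Restricting to genes well above background on all 4 arrays removes Igfbp5 by construction.

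For OB neurons against HPC neurons, spike-in scaling left 3 genes called in place of 5 (2 higher and 1 lower, against 4 and 1). For stem cells, it gave 2 higher and 0 lower in place of 1 and 1, and the mean over probes left 1. For the difference of the state changes, spike-in scaling gave 1 gene (Igfbp6) and the mean over probes 1 (Igfbp2) in place of 2. For the source term of the limma fit, normexp and the filter to genes well above background on all 4 arrays each gave 1 gene (Igf1) in place of 0. Both of these calls rest on the spread shared over genes. For the state term of the limma fit the count of 7 includes Igfbp5, which was not well above background in stem cells. The count became 6 with quantile normalization, median scaling or the mean over probes (without Igf1). It became 5 with spike-in scaling (without Igf1 and Igf2r), and 6 with the filter on all 4 arrays (Igfbp5 not fitted). The cause was not tested, beyond the construction of each alternative.

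Among all genes, higher calls in olfactory bulb cells numbered 1887 against 1402 lower, but 1386 against 2363 with median and 1125 against 3320 with spike-in scaling. In hippocampal cells they were 1455 against 1786, and 1154 against 2855 and 1938 against 978. The medians of all genes moved with them, by spike-in scaling to -0.90 and 0.12 for the state changes of the olfactory bulb and the hippocampus. The dim Igf1 probes and the stem cell values of Igfbp6 lie near the detection floor, and those of Igfbp5 below it.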
